A study of Mus musculus with 54 samples.

Results

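The growth hormone and STAT5 axis was followed through 10 genes of the liver transcriptome, each found by an exact match of its symbol among the 20162 entries of the expression table. They were the growth hormone receptor Ghr, the transcription factors Stat5a and Stat5b, the circulating growth factor Igf1 and its carrier Igfals, the feedback inhibitors Socs2 and Cish, the repressor Bcl6, and the male-biased enzymes Hsd3b5 and Elovl3. The per-mouse sum of the 22 entries for major urinary proteins (Mup genes) was set beside them, and the 18 entries for Mup pseudogenes were left out of that sum. All mice were wildtype, single-housed C57Bl/6J males on a high-fat diet (HFD) from the age of 8 weeks, and none was on regular chow. For 20 weeks, 14 of them received a placebo gelatin pellet (control), and 13, 13 and 14 received a pellet with the plasticizer di-isononyl phthalate (DINP) at 1.5, 15 or 150 mg per kg body weight and day (mg/kg below). RNA came from the medial lobe of the liver, so a value is an average over the cells of that lobe, and fewer cells of a type cannot be told apart from less RNA per cell.

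Pituitary growth hormone binds GHR on hepatocytes and activates the kinase JAK2, which phosphorylates STAT5A and STAT5B. The phosphorylated factors move to the nucleus and bind DNA at a short palindrome, and they drive Igf1, Igfals and their own inhibitors Socs2 and Cish. Male rodents release the hormone in pulses, and the pulses maintain a male pattern of liver genes to which Hsd3b5, Elovl3 and the Mup genes belong. BCL6 is a repressor of many STAT5 targets and is itself lowered by STAT5. The mRNA level of a STAT does not show its phosphorylation, which was not measured in these libraries.

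The genes lie on several chromosomes, and Stat5a and Stat5b are next to each other. On GRCm38, with gene spans of GENCODE M21, Ghr is at chr15:3317760-3583492 on the minus strand, Igf1 at chr10:87858265-87937042 on the plus strand, Hsd3b5 at chr3:98618634-98630252 on the minus strand and Elovl3 at chr19:46131897-46135694 on the plus strand. Stat5b is at chr11:100780731-100850724 (minus strand) and Stat5a at chr11:100859351-100885169 (plus strand). None of the 10 overlaps another gene on its own strand. On the other strand Stat3 overlaps Stat5a, Igf1os overlaps Igf1, and Cish, Bcl6, Hsd3b5 and Elovl3 each overlap at least 1 gene. The strand setting of the counting is not given in the sources used here, so reads from such a partner cannot be told apart from those of the gene.

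RefSeq promoter windows (GRCm38.p6, 250 bases before and 50 after a start site) were given for 8 of the 10 genes, 14 windows in all. The window of Hsd3b5 (chr3:98645485-98645784, minus strand) lies outside the GENCODE span given above, so nothing is read from its lack of a match. The STAT5 core TTCNNNGAA, which is its own reverse complement and was therefore read on both strands at once, was found in 5 windows of 3 genes, and 8.3% of all 32851 windows of that length held it. The windows of Cish and of 1 Bcl6 start site held 2 and 3 matches, against 0.457% of all windows with 2 or more. The windows below show these matches in capitals beside Igf1, the gene with the clearest change between doses, whose window had none. A match is a run of letters and not a measured binding site, and nothing follows from its absence for Igf1, since a window holds only the bases next to 1 start.
Cish, chr9:107296409-107296708, plus strand: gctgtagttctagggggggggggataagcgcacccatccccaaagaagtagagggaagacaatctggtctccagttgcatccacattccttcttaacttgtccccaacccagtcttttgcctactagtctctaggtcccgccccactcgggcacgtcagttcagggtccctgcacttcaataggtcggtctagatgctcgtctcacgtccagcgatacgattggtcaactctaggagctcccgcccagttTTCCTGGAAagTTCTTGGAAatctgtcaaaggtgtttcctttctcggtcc
Bcl6, chr16:23981234-23981533, minus strand: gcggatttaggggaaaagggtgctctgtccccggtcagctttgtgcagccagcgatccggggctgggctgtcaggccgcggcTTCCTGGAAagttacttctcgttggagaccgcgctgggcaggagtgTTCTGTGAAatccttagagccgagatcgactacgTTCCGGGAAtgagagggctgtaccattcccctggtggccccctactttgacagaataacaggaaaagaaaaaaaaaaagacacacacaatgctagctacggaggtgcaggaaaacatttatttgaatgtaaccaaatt
Igfals, chr17:24877981-24878280, plus strand: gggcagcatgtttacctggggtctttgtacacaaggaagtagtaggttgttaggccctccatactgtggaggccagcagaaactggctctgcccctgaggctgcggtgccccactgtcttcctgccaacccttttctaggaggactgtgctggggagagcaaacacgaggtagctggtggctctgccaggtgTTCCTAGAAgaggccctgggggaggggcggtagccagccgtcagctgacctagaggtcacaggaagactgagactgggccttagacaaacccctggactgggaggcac
Igf1, chr10:87860861-87861160, plus strand: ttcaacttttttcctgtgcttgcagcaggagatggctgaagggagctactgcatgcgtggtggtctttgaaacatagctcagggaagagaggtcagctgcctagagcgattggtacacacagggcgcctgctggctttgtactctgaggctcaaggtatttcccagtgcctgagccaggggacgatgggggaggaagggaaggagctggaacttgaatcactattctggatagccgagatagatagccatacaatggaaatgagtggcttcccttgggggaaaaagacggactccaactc
In Cish the matches TTCCTGGAA and TTCTTGGAA began at 0 and 11 bases from the start site. In the Bcl6 window they began 168, 122 and 88 bases before it, and in the Igfals window TTCCTAGAA began 58 bases before it.

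The deposited values are TPM, a share of all transcripts corrected for length, rounded to whole numbers and multiplied by 1 factor per mouse, called the step here. The step is what 1 TPM is worth in that mouse, and it ran from 0.764 to 1.11. The number of reads behind a value is unknown, and the total per mouse ran from 747258 to 1076439. QuantSeq libraries cover the 3′ ends of transcripts only, whereas TPM divides by length, so a comparison of levels between genes is approximate. Controls held Alb at a mean of 19400 and the Kupffer cell marker Clec4f at 17.8, while Cd3e and Cd79a of lymphocytes and Adipoq, Plin1 and Lep of adipocytes had means under 1 in every group. The mouse of control replicate 8 had the lowest step of all. It also had the lowest deposited Ghr, Igf1, Igfals and Elovl3 values and the lowest Mup sum of its group. Its Hsd3b5 was 1 whole TPM, as in control replicates 4 and 9, and was the lowest only through the step. Results that rest on it are given with and without it where both were computed.

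On this per-length scale Igf1 had the highest mean level over the 54 mice (189 ± 35.9, SD), followed by Ghr (140.2 ± 23.1) and Elovl3 (51.7 ± 28.2). Igf1 was above Ghr in 52 of 54 mice, and Ghr above Elovl3 in 53. Hsd3b5 (23.9 ± 31.0), Igfals (21.6 ± 7.86) and Socs2 (14.0 ± 9.05) followed. Hsd3b5 and Igfals were not separated, since Hsd3b5 was the higher in only 21 mice. Stat5b (5.71 ± 1.22), Bcl6 (5.23 ± 3.22), Cish (4.75 ± 3.94) and Stat5a (3.01 ± 0.938) were the lowest. Neighbours among these lowest genes changed places in about as many mice as not, and their values are a few whole TPM each.

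The spread between mice of 1 group differed widely between the genes. The SD within groups on the log2(value + 1) scale was 0.21 for Igf1 and 0.22 for Ghr, at percentile 13.5 and 16.4 of the 11431 entries tested. It was 0.56 for Igfals, 0.73 for Socs2 and for Elovl3, 0.79 for Bcl6 and 0.95 for Cish, all above percentile 85 of all entries. Hsd3b5 had an SD of 2.29, at percentile 99.9, and it stayed at percentile 99.8 among the 2659 entries with a mean within 2-fold of its own. Among entries with a mean within 2-fold of their own, Igf1 was at percentile 29.4 and Ghr at percentile 32.7, so they stood out less from entries of like level, whereas Socs2, Cish and Bcl6 stayed above percentile 94.

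**Figure D1:**
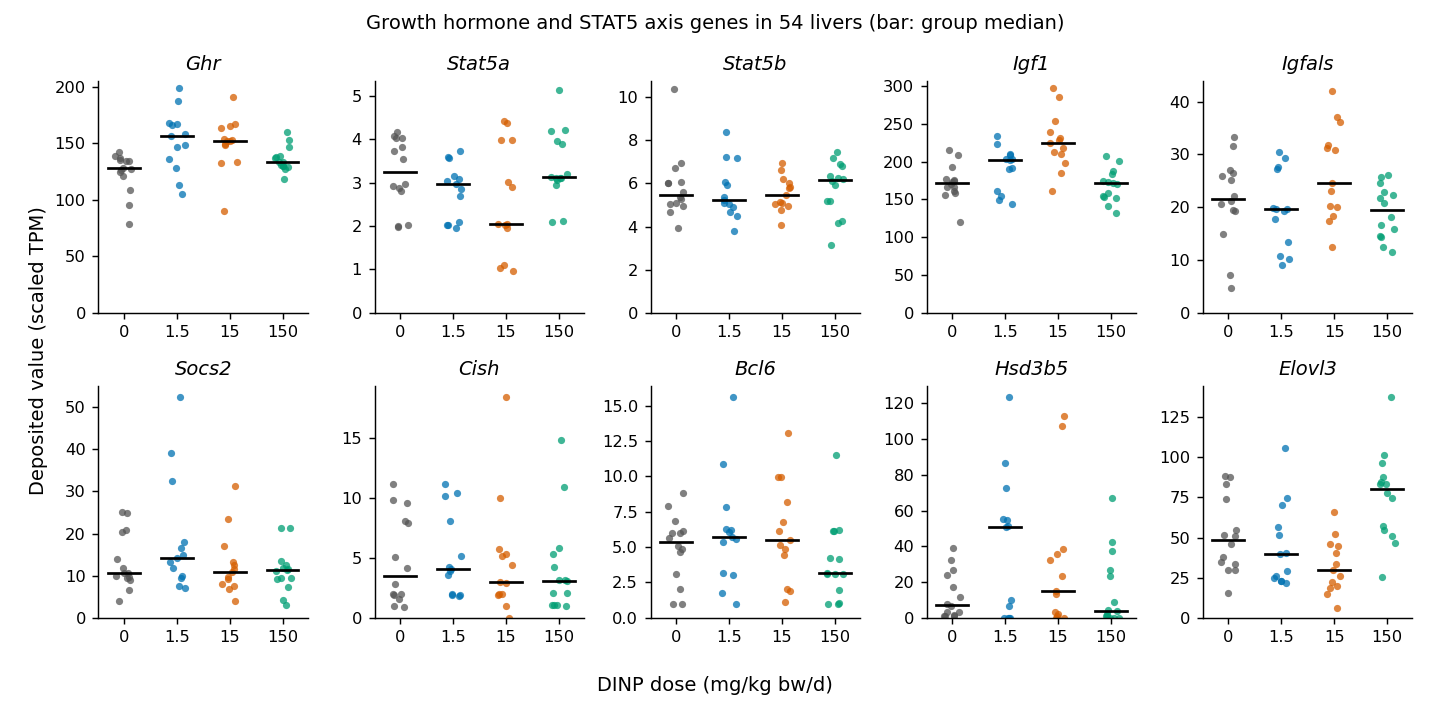
Deposited value (scaled TPM, linear axis from 0) of each of the 10 genes in each of the 54 mice against the DINP dose, with 1 point per mouse and a bar at the group median. Igf1 reached its highest median at 15 mg/kg and Elovl3 its lowest, while Hsd3b5 ran from 0 to over 100 within the groups at 1.5 and 15 mg/kg.

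Ghr, which encodes the receptor through which the hormone reaches hepatocytes, was higher at 15 mg/kg. Its lowest, median and highest values were 78.7, 128 and 142 in control and 90.4, 152 and 191 at 15 mg/kg. They were 106, 156 and 199 at 1.5 mg/kg, and 118, 134 and 160 at 150 mg/kg. In each dose group most mice lay above the control median (11 of 13, 12 of 13 and 12 of 14), although the ranges overlapped. The log2 fold change (log2FC) at 15 mg/kg was 0.27 (SE 0.086, adjusted p = 0.0244, limma with Benjamini-Hochberg adjustment over all entries). Here and below, "rose" and "fell" mean an adjusted p under 0.05, and a differentially expressed gene (DEG) in addition has a log2FC beyond 0.5, which Ghr did not reach. The log2FC was almost as large at 1.5 mg/kg (0.29, SE 0.086) but did not pass the test (adjusted p = 0.0793), and at 150 mg/kg it was 0.15 (adjusted p = 0.436). None of the differences between doses passed the test for Ghr in the deposited values (adjusted p from 0.327 to 0.915). The call at 15 mg/kg was lost without control replicate 8 (0.23, adjusted p = 0.0566) and without replicate 8 of the dose group (0.24, adjusted p = 0.0574).

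Ghr was also the member tied most closely to the step (Pearson r = 0.86 over 54 mice after removal of group means), and the mean log2 step was 0.018, 0.056 and 0.095 above control at 1.5, 15 and 150 mg/kg. In the whole-number TPM before that factor, a choice made after the data were seen, Ghr rose at 15 mg/kg by 0.22 (adjusted p = 0.0142) and at 1.5 mg/kg by 0.27 (adjusted p = 0.0206). With the step as a covariate the changes were 0.15 (adjusted p = 0.0425) and 0.25 (adjusted p = 0.0031). Ghr was then also higher at 1.5 than at 150 mg/kg, by 0.22 in whole-number TPM (adjusted p = 0.0276), 0.32 with the step as a covariate (adjusted p = 4.71e-05) and 0.25 with a total that left out the Mup genes (adjusted p = 0.00953), against 0.14 (adjusted p = 0.401) in the deposited values. With the covariate Ghr was higher at 15 than at 150 mg/kg as well (0.21, adjusted p = 0.00106).

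The transcription factors were low and did not pass the test at any dose. Stat5b, the main STAT5 of hepatocytes, lay between 3.14 and 10.4 in all 54 mice, with group medians from 5.21 to 6.16. Its log2FC was -0.04, -0.05 and -0.01 in order of dose, and the 95% intervals lay between -0.26 and 0.19. Stat5a lay between 0.951 and 5.13, and its median was 3.26 in control, 2.98 at 1.5, 2.05 at 15 and 3.12 at 150 mg/kg. At 15 mg/kg only 4 of 13 mice were above the control median, with a log2FC of -0.29 (95% interval -0.56 to -0.017, adjusted p = 0.155). Between 15 and 150 mg/kg the difference was -0.35 (adjusted p = 0.0626), and it passed the test with the step as a covariate (-0.38, adjusted p = 0.0314).

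Igf1, the secreted mediator of growth hormone that the liver supplies to the blood, rose at 15 mg/kg and not at the doses below and above. Its lowest, median and highest values were 120.0, 172 and 216 in control and 161, 225 and 298 at 15 mg/kg. They were 144, 202 and 234 at 1.5 mg/kg, and 132, 171 and 208 at 150 mg/kg. At 15 mg/kg 12 of 13 mice lay above the control median, and the lowest of them lay below it. The log2FC was 0.39 (SE 0.083, 1.31-fold, adjusted p = 0.000867), and it stayed between 0.35 and 0.43 without any 1 mouse of both groups (adjusted p at most 0.00238). At 1.5 mg/kg the log2FC was 0.14 (adjusted p = 0.507) and at 150 mg/kg -0.03 (95% interval -0.19 to 0.13, adjusted p = 0.917).

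The differences between doses themselves passed the test for Igf1. It was higher at 15 than at 150 mg/kg by 0.42 (SE 0.083, 1.34-fold, adjusted p = 0.000207) and than at 1.5 mg/kg by a log2FC of 0.25 in size (1.5 against 15, -0.25, SE 0.084, adjusted p = 0.0281). The latter was lost under quantile normalization (-0.16, adjusted p = 0.139), with a total that left out the Mup genes (-0.18, adjusted p = 0.0821) and with the step as a covariate (-0.21, adjusted p = 0.0505). It was also lost in 6 of 26 fits without 1 mouse, namely replicate 4, 9 or 13 at 1.5 or replicate 2, 3 or 9 at 15 mg/kg (-0.23 to -0.21, adjusted p at most 0.0603). The difference between 1.5 and 150 mg/kg was 0.17 (adjusted p = 0.27), and it passed with a total that left out the Mup genes (0.28, adjusted p = 0.0167), in whole-number TPM (0.25, adjusted p = 0.0398) and with the step as a covariate (0.26, adjusted p = 0.0456). Of the 5 hepatocyte markers, Ttr, a secreted protein, moved in the same direction as Igf1: 0.42 at 15 mg/kg (adjusted p = 0.0231), -0.51 for 1.5 against 15 and 0.37 for 15 against 150 mg/kg. Apoa1, the main protein of high-density lipoprotein, moved in the opposite direction to Igf1 for 1.5 against 15 mg/kg (0.40, adjusted p = 0.00612) and was also higher at 1.5 than at 150 mg/kg (0.35, adjusted p = 0.0473). By limma none of the tested markers of cholangiocytes, Kupffer cells, sinusoidal endothelial cells, stellate cells, lymphocytes or neutrophils passed the test at 15 mg/kg against control, and 1 of the 2 tested cholangiocyte markers had an unadjusted p under 0.05. Between doses, Krt19 of cholangiocytes was higher at 1.5 than at 15 mg/kg (0.89, adjusted p = 0.0428), and Sox9 of cholangiocytes (-0.49, adjusted p = 0.0439) and Kdr of endothelial cells (-0.21, adjusted p = 0.0377) were lower at 15 than at 150 mg/kg. The part of these cells in the differences of Igf1 was not tested.

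Of the 10 members, 2 rose and none fell at 15 mg/kg, against 14.2% of all entries tested that passed in either direction and 7.57% that rose. None was a DEG there, against 3.72% of all entries. At 1.5 and 150 mg/kg none of the 10 passed the test, against 1.2% and 2.17% of all entries, and 1 member had an unadjusted p under 0.05 at each of these doses (Ghr and Elovl3). Between doses, 1 of 10 passed for 1.5 against 15 mg/kg (21.4% of all entries), none for 1.5 against 150 (4.61%, with 3 members at an unadjusted p under 0.05) and 2 for 15 against 150 mg/kg (20% of all entries). The members were chosen with earlier results of these data known, and nothing is read from these counts about the genes as a set.

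**Figure D2:**
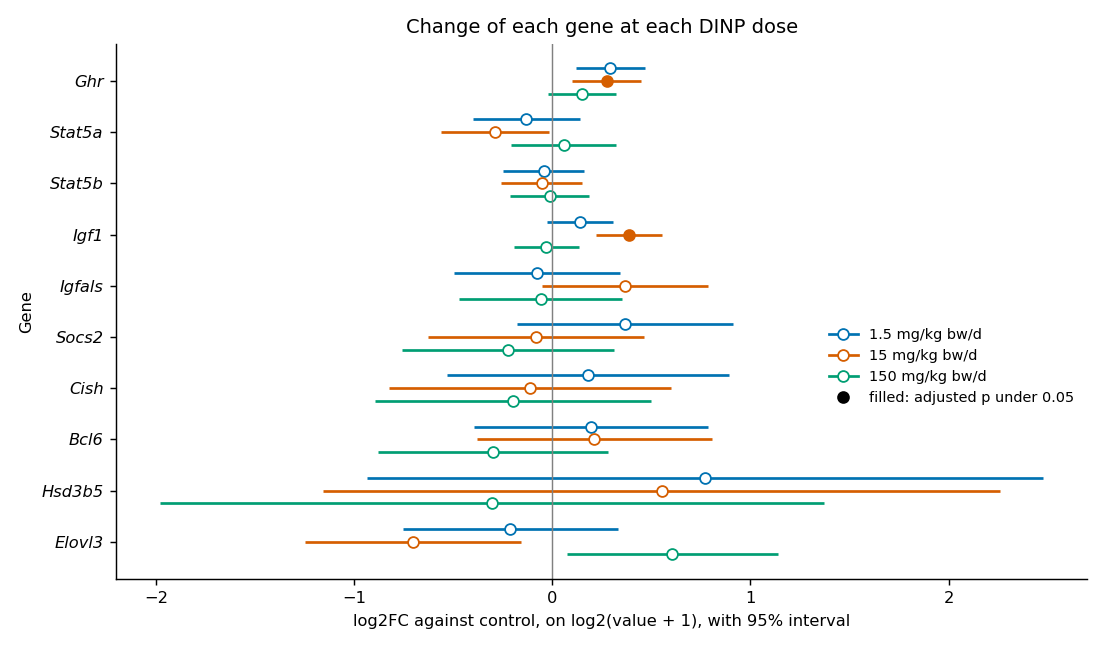
log2FC of each gene against control on the log2(value + 1) scale (x axis), with the 95% interval as a line, for the 3 DINP doses. Filled points have an adjusted p under 0.05: Ghr (0.27) and Igf1 (0.39) at 15 mg/kg. The intervals of Hsd3b5 span more than 3 log2 units, while those of Stat5b stay between -0.26 and 0.19.

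Igfals, the acid-labile subunit that holds IGF1 in a long-lived complex in the blood, had values of 4.59, 21.6 and 33.2 (lowest, median and highest) in control and of 12.4, 24.5 and 42.0 at 15 mg/kg. The groups at 1.5 mg/kg (8.96 to 30.4) and 150 mg/kg (11.5 to 26.1) lay within the control range. Its log2FC at 15 mg/kg was 0.37, close to that of Igf1, but with an SE of 0.21 it did not pass the test (adjusted p = 0.258). At the other doses it was -0.08 and -0.06. Igfals was also tied to the step (r = 0.74), and with the step as a covariate the difference between 15 and 150 mg/kg was 0.62 (adjusted p = 0.00148), against 0.42 (adjusted p = 0.15) without it. With the same covariate its log2FC against control was 0.094 at 15 mg/kg (adjusted p = 0.745) and -0.52 at 150 mg/kg (adjusted p = 0.0541).

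The feedback inhibitors gave no change that passed the test. Socs2, which limits signalling at the receptor, ran from 2.96 to 52.5 over all mice, and its 3 highest values (32.4, 39.1 and 52.5) were in the group at 1.5 mg/kg. The log2FC at that dose was 0.37 (SE 0.27, adjusted p = 0.628). Cish, an early STAT5 target, ran from 0 to 18.4, and its group medians were between 3.01 and 4.03. Its 95% intervals were -0.53 to 0.89, -0.82 to 0.60 and -0.90 to 0.50 in order of dose, so each leaves room for a change in either direction. Bcl6 had medians of 5.34, 5.72, 5.53 and 3.17 in order of dose, with 4 of 14 mice above the control median at 150 mg/kg and a log2FC of -0.30 there (SE 0.29, adjusted p = 0.701).

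Elovl3, an elongase of very long fatty acids that is high in male mouse liver and follows the daily rhythm, was the member with the largest difference between doses. Its lowest, median and highest values were 15.3, 48.6 and 88.6 in control and 21.9, 40.0 and 106 at 1.5 mg/kg. They were 6.20, 29.6 and 65.7 at 15 mg/kg, and 25.7, 80.5 and 138 at 150 mg/kg. Only 2 of 13 mice were above the control median at 15 mg/kg, while 12 of 14 were above it at 150 mg/kg. Between 15 and 150 mg/kg the log2FC was -1.31 (SE 0.27, adjusted p = 0.000358), which made Elovl3 a DEG between these doses, and it ran from -1.42 to -1.14 without any 1 mouse of both groups (adjusted p at most 0.000977). Neither dose was past the test against control: the log2FC was -0.70 at 15 mg/kg (SE 0.27, adjusted p = 0.0727) and 0.61 at 150 mg/kg (SE 0.27, adjusted p = 0.272). The decrease at 15 mg/kg passed the test with a total that left out the Mup genes (-0.75, adjusted p = 0.0463), in the whole-number TPM (-0.76, adjusted p = 0.0427), with the step as a covariate (-0.89, adjusted p = 0.0156) and without control replicate 8 (-0.82, adjusted p = 0.0312), or replicate 11 (-0.80) or 12 (-0.78) of the dose group. At 1.5 mg/kg it was -0.21 (adjusted p = 0.82).

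Genes of the daily clock were read beside Elovl3 and Igf1, since Elovl3 follows the daily rhythm. Of the 18 clock genes and outputs listed, 15 were tested, and at 15 mg/kg 4 rose and none fell, beside 7.57% of all entries that rose and 14.2% that passed in either direction (median log2FC of the 15, 0.28, against -0.0010 over all entries). They were Usp2 (1.37, adjusted p = 0.00895), Dbp (1.00, adjusted p = 0.0125), Per3 (0.75, adjusted p = 0.00557) and Nr1d2 (0.42, adjusted p = 0.00158). None passed the limma test at 1.5 or 150 mg/kg, with 1 of the 15 at an unadjusted p under 0.05 at each. The direction was not particular to 15 mg/kg: 12, 10 and 11 of the 15 were higher in order of dose. The median log2FC was 0.17 at 1.5 and 0.10 at 150 mg/kg, against 0.0028 and -0.0081 over all entries. For 1.5 against 15 mg/kg only Nr1d2 passed (-0.30, adjusted p = 0.0208), beside 21.4% of all entries. Between mice of 1 group, Elovl3 had a positive r with Nr1d1 (0.47), Clock (0.46) and Nfil3 (0.42) and a negative r with Usp2 (-0.39), Per2 (-0.37) and Dbp (-0.34), while the r of Igf1 with the 15 genes lay between 0.015 and 0.29. These are descriptions over 54 mice. The hour at which each mouse was sampled is not given in the sources used here, and the part of the clock in the results for Elovl3 and Igf1 was not tested.

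Hsd3b5, a steroid-metabolizing enzyme found in male mouse liver, was the most variable of the genes. Its lowest, median and highest values were 0.764, 7.16 and 39.2 in control and 0, 51.0 and 123 at 1.5 mg/kg. They were 0, 15.3 and 113 at 15 mg/kg, and 0, 4.05 and 66.9 at 150 mg/kg. It was listed at 0 in none of the control mice and in 4, 2 and 3 mice of the dose groups. The log2FC was 0.77, 0.55 and -0.30 in order of dose, each with an SE near 0.85 (adjusted p from 0.724 to 0.918), and the 95% interval at 1.5 mg/kg ran from -0.94 to 2.48.

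At 1.5 mg/kg the mice with Hsd3b5 at 0 were also low in several of the other genes. The 4 mice with Hsd3b5 at 0 had the 4 lowest values of their group for the Mup sum (11080 to 13940, against 16730 to 55420 in the other 9), Igf1 (144 to 161, against 190 to 234), Ghr (106 to 136, against 147 to 199) and Igfals (8.96 to 13.4, against 17.7 to 30.4). In Stat5a they held none of the 4 lowest values, and in Elovl3, Socs2, Cish and Stat5b they held 2 of them. The same 4 mice also had the 4 lowest steps of their group (0.894 to 0.931, against 0.953 to 1.05), so their libraries stood apart in the scaling as well. In whole-number TPM, before that factor, they still held the 4 lowest values for the Mup sum, Igf1 (161 to 173, against 184 to 223), Ghr (118 to 146, against 151 to 191) and Igfals (10 to 15, against 17 to 29), with narrower gaps. The other 9 were not a uniform high set, since their Hsd3b5 ran from 6.67 to 123. The 4 mice were picked by Hsd3b5, which varies with these genes between mice, and are not a group of the study. Low values of the same genes were therefore likely from the choice itself, and no test was made. The 2 mice at 0 for 15 mg/kg likewise had the 2 lowest Mup sums and Igf1 values of their group, although in whole-number TPM only 1 of them was among the 2 lowest for Igf1. At 150 mg/kg only 1 of the 3 was among the 3 lowest for either, although in whole-number TPM 2 of them were for Igf1.

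The Mup genes encode small proteins that carry pheromones into the urine, and their liver expression depends on pulses of growth hormone. The Mup sum had a lowest, median and highest value of 9274, 14625 and 20450 in control and of 11079, 24802 and 55422 at 1.5 mg/kg. At 15 and 150 mg/kg the medians were 17291 and 16711. The sum was higher at 1.5 mg/kg by 0.57 on the log2 scale (1.49-fold; SD 0.70 in the dose group and 0.33 in control; 2-sided permutation test with 100000 resamples, p = 0.0106, adjusted p = 0.0317 over 3 doses), with 9 of 13 mice above the control median. It was 0.14 higher at 15 mg/kg (adjusted p = 0.388) and 0.16 higher at 150 mg/kg (adjusted p = 0.367). The adjusted p at 1.5 mg/kg rose above 0.05 in 7 of 27 fits without 1 mouse, namely without control replicate 4 or 8 or without replicate 2, 3, 5, 8 or 11 of the dose group (0.46 to 0.54 on the log2 scale, adjusted p at most 0.0639). The mean level of Hsd3b5 was 39.4 at this dose and 12.6 in control, but its own difference did not pass the test, as given above.

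Across the 54 mice, after removal of the group means, Hsd3b5 varied most closely with the Mup sum (Pearson r = 0.84, Spearman rho = 0.85). The r was 0.72 in control and 0.92, 0.79 and 0.86 at 1.5, 15 and 150 mg/kg, and it was 0.85 without the 2 mice farthest from the median Mup sum. Only 0.0702% of the 11403 tested entries outside the Mup family had an r as large in either direction. Igf1 followed with an r of 0.63 (rho 0.57; 0.54 to 0.68 within the groups; 1.79% of entries as large) and Ghr with 0.60 (rho 0.53; 0.37 to 0.83 within the groups; 2.4% of entries as large). For all of these the permutation p within dose groups was at most 5e-05, with 100000 resamples, and that of Hsd3b5 and Igf1 (1e-05) is the smallest these can give.

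Stat5a was the only member with a negative r past the test (r = -0.49, rho -0.46, adjusted p = 0.0002 over the 10 relations). It was -0.03 in control and -0.70, -0.73 and -0.38 at the 3 doses. Elovl3 (r = 0.41, adjusted p = 0.00746), Igfals (0.34, adjusted p = 0.0212) and Cish (0.31, adjusted p = 0.0309) also passed, whereas Bcl6 (0.27, adjusted p = 0.0685), Socs2 (0.28, adjusted p = 0.0685) and Stat5b (-0.07, adjusted p = 0.603) did not. By Spearman's rho 5 members passed, without Igfals (rho 0.23, adjusted p = 0.13) and Cish (0.29, adjusted p = 0.0576). An r of 0.34 or more in size was common here, with 19.7% of all entries as large as Igfals.

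The Mup sum and the members share 1 total and 1 step per mouse, and the Mup sum itself had an r of 0.48 with the step. With a total that left out the Mup genes Igfals (0.21, adjusted p = 0.143) and Cish (0.28, adjusted p = 0.0625) no longer passed, nor did they in whole-number TPM (0.20 and 0.28). Without removal of the group means Igfals (0.25) and Elovl3 (0.28) did not pass and Socs2 did (0.34, adjusted p = 0.0244). With the step as a covariate the r with the Mup sum was 0.80 for Hsd3b5, 0.53 for Igf1, 0.42 for Ghr and -0.44 for Stat5a, all with an adjusted p under 0.05. That of Igfals was -0.03, and those of Elovl3 (0.27) and Cish (0.25) did not pass either, while Bcl6 passed (0.32, adjusted p = 0.0458). Without control replicate 8 the r of Igfals was 0.28 (adjusted p = 0.0713) and that of Cish 0.29 (adjusted p = 0.0537). Igfals also missed the threshold without replicate 10 at 1.5 (0.29) or replicate 7 at 15 mg/kg (0.29), and Cish without replicate 5 (0.27) or 10 (0.28) at 1.5 or replicate 3 at 15 mg/kg (0.24). Bcl6 passed without control replicate 11 (0.31), replicate 2 at 1.5 (0.30) or replicate 14 at 150 mg/kg (0.30), and Socs2 without replicate 3 at 150 mg/kg (0.32).

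**Figure D3:**
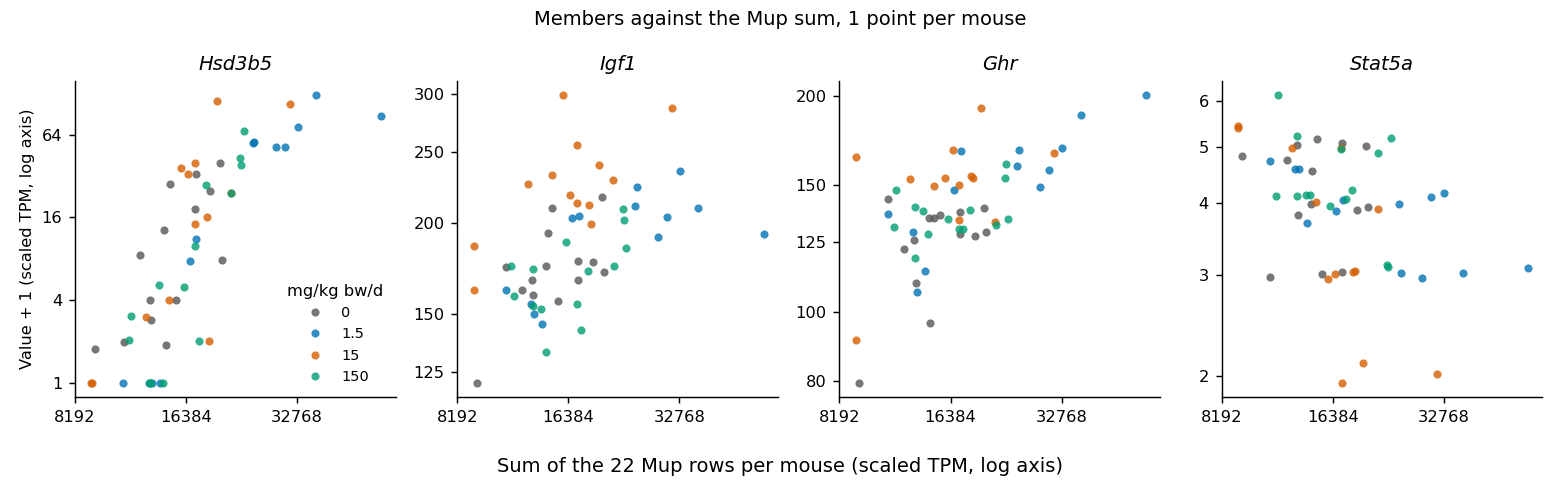
Value + 1 of Hsd3b5, Igf1, Ghr and Stat5a (y axes, scaled TPM, log scale) against the sum of the 22 Mup entries (x axis, log scale), with 1 point per mouse and a colour per dose. Hsd3b5 climbs with the Mup sum in every dose group (r from 0.72 to 0.92 within groups), whereas Stat5a declines (pooled r of -0.49).

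Between the members themselves, 14 of 45 pairs had an adjusted p under 0.05 across mice (10 positive and 4 negative), and 12 of them passed by Spearman's rho as well. A share over pairs of all tested entries, which also have 1 total and 1 step per mouse, was not computed. Nothing is therefore read from this count about the genes as a set. Igf1, Ghr, Igfals and Hsd3b5 formed the closest set: Igf1 with Hsd3b5 had an r of 0.74 and Ghr with Igfals 0.72, and the other pairs among the 4 had an r from 0.51 to 0.63. The r of Igf1 with Hsd3b5 was 0.56, 0.88, 0.78 and 0.68 in order of dose, so it was present in each group. That of Ghr with Igfals was 0.95 in control but 0.05 at 150 mg/kg, a difference that was not tested. Control replicates 8 and 9 had the lowest Ghr (78.7 and 95.4), Igfals (4.59 and 7.07) and steps of control. The control r was not computed without them. At 150 mg/kg Ghr varied less (SD on the log2 scale 0.11, against 0.24 in control). Over 54 mice the r was 0.62 without the 2 mice farthest from the median Ghr. With the step as a covariate the r of Igfals was 0.26 with Ghr (adjusted p = 0.211), 0.27 with Hsd3b5 (adjusted p = 0.2) and 0.30 with Igf1 (adjusted p = 0.138). Ghr with Igf1 (0.37) missed the threshold there too, and both Ghr with Igf1 and Igf1 with Igfals did so with a total that left out the Mup genes (0.32 and 0.25) and in whole-number TPM (0.31 and 0.26). Stat5a ran against Ghr (-0.40), Hsd3b5 (-0.41) and Cish (-0.41).

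The inhibitors were tied to other partners than the secreted factors. Socs2 went with Stat5b (r = 0.44, adjusted p = 0.00664) and with Cish (0.37, adjusted p = 0.0222), and neither Socs2 nor Cish had an r past the test with Igf1, Igfals or Ghr. Cish and Bcl6, the repressor that opposes STAT5, ran against each other (r = -0.47, rho -0.52, adjusted p = 0.00289), most of all in control (-0.61) and at 150 mg/kg (-0.75). Elovl3 went with Hsd3b5 (0.38) and Ghr (0.36, adjusted p = 0.0481), and the latter was lost without 1 mouse in 30 of 54 fits. Neither pair passed by Spearman's rho (0.32, adjusted p = 0.0798, and 0.14, adjusted p = 0.506). Ghr with Elovl3 had an r of 0.07 without the 2 mice farthest from the median Ghr. With a total that left out the Mup genes or in whole-number TPM, Elovl3 with Hsd3b5 missed the threshold (r = 0.34 in each). With the step as a covariate 5 pairs passed: Igf1 with Hsd3b5 (0.68), Ghr with Hsd3b5 (0.50), Ghr with Stat5a (-0.40), Stat5b with Socs2 (0.43) and Cish with Bcl6 (-0.48).

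**Figure D4:**
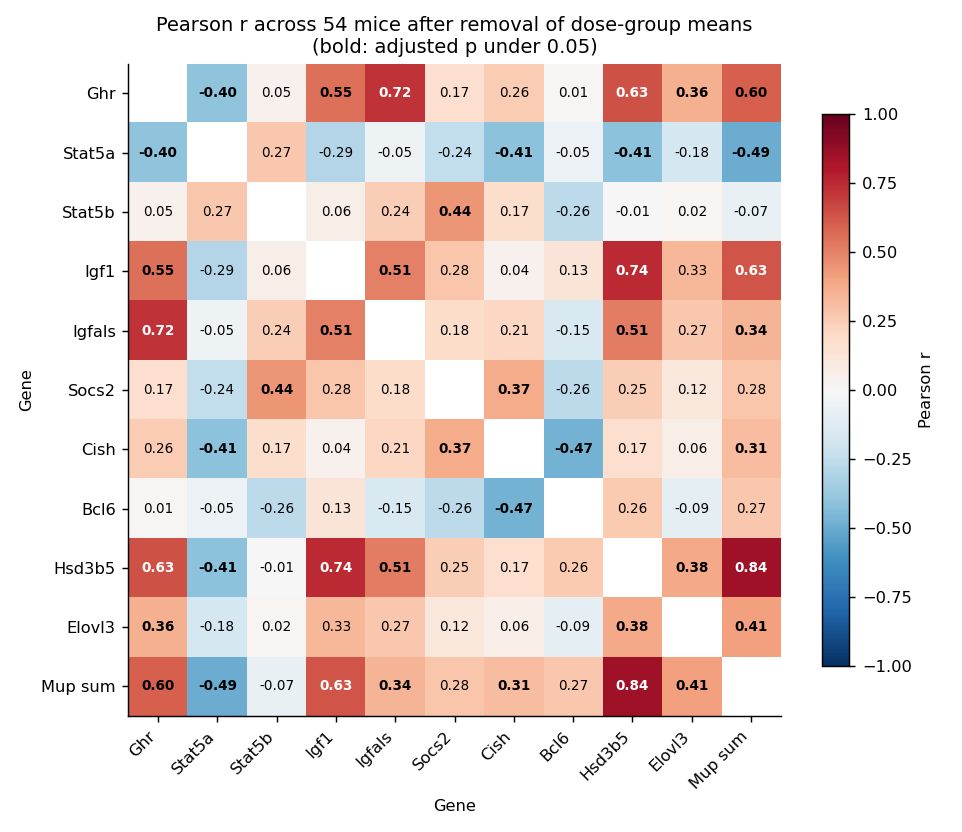
Pearson r between each pair of the 10 genes and with the Mup sum across 54 mice after removal of the group means (both axes list the genes, colour from -1 to 1). Bold values have an adjusted p under 0.05; Ghr, Igf1, Igfals and Hsd3b5 are positive with each other (0.51 to 0.74), and Cish with Bcl6 is negative (-0.47).

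Of all tested entries, those whose pattern over the 54 mice was most like Hsd3b5 were Mup7 (r = 0.89), Cyp7b1 (0.89) and Slco1a1 (0.88), of which Cyp7b1 hydroxylates oxysterols and Slco1a1 takes up organic anions. Ghr was most like Sult2a8 (0.88), Cyp2c50 (0.87) and Akr1c6 (0.87), and Igfals like Cyp2e1 (0.86), Pon1 (0.86) and Cyp2c50 (0.85). Igf1 was most like Serpina3k (0.79), Cyp4f14 (0.76) and Ces3b (0.74). Elovl3 was most like Coq8a (0.83), Slc30a10 (0.76) and Cbs (0.74), and Cish like Phlda1 (0.81), Arid5b (0.77) and Foxq1 (0.72). Socs2 (Sash1, 0.60), Stat5b (Hbp1, 0.72), Stat5a (Hcfc1r1, 0.64) and Bcl6 (Nherf2, 0.48) had no entry closer than these. The values are descriptions without a test.

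Of 29 other listed genes for growth hormone signalling and IGF binding, 27 were tested. At 15 mg/kg 1 of the 27 passed the test, beside 14.2% of all entries: Stat3, a STAT of cytokine signalling, fell (-0.32, SE 0.090, adjusted p = 0.0125). The kinase Jak2 was at a mean of 1.91 in control and at 1.79 to 1.91 in the dose groups. None of the 27 passed the limma test at 1.5 or 150 mg/kg (3 at an unadjusted p under 0.05 at each), and the median log2FC of the list was -0.02, -0.12 and 0.04 in order of dose, beside medians of all entries within 0.01 of 0. Between 15 and 150 mg/kg 4 of the 27 passed and all 4 were lower at 15 mg/kg, beside 20% of all entries that passed. Of these, Igfbp2, which binds IGF1 in the circulation, was lower at 15 than at 150 mg/kg by 0.97 on the log2 scale (-0.97, adjusted p = 0.0149), the opposite of Igf1.

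Of the male-biased genes other than the members, 14 of 18 listed were tested. None passed the limma test at 1.5 mg/kg (4 at an unadjusted p under 0.05), where 12 of 14 were higher (median log2FC 0.39, against 0.0028 over all entries). At 15 and 150 mg/kg 9 and 10 of the 14 were higher (median 0.03 and 0.28, against -0.0010 and -0.0081). Genes of such a list vary together between mice, so these are not counts of independent genes. At 15 mg/kg 2 of the 14 passed, beside 14.2% of all entries, and both rose: Nudt7 (0.82, adjusted p = 0.00248), a peroxisomal hydrolase of coenzyme A, and Keg1 (0.71, adjusted p = 0.0283). At 150 mg/kg, where 2.17% of all entries passed, 2 rose: Cyp4a12b (1.96, adjusted p = 0.00294) and Cyp4a12a (1.60, adjusted p = 5.78e-05), which hydroxylate fatty acids. Of the female-biased genes 14 of 26 listed were tested. At 1.5 mg/kg 11 of the 14 were lower (median log2FC -0.34) and none passed the limma test (3 at an unadjusted p under 0.05), and none passed at 15 mg/kg (1 at an unadjusted p under 0.05). At 15 and 150 mg/kg 7 and 8 of the 14 were lower (median 0.05 and -0.06). The only changes against control were at 150 mg/kg: Cyp4a14, a fatty acid hydroxylase and a known target of the lipid receptor PPARα, rose (1.84, adjusted p = 7.28e-05) and the neurotrophin receptor Ntrk2 fell (-1.13, adjusted p = 0.00212).

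Between mice of 1 group, all 14 male-biased genes had an r above 0 with the Mup sum (0.0031 for Gstp2 to 0.85 for Cyp7b1, median 0.70), and all 14 female-biased genes an r below 0 (-0.08 for Cyp2c40 to -0.87 for Slc22a27, median -0.58). Over all 11403 entries outside the Mup family the median r was -0.0031. The 27 signalling and IGF binding genes were split, 13 above and 14 below 0, with Igfbp2 at 0.78. Clock genes had a median r of 0.23. These are descriptions over 54 mice that share a total and a step, and many of the male-biased genes are known to respond to the same hormone as the Mup genes.

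**Figure D5:**
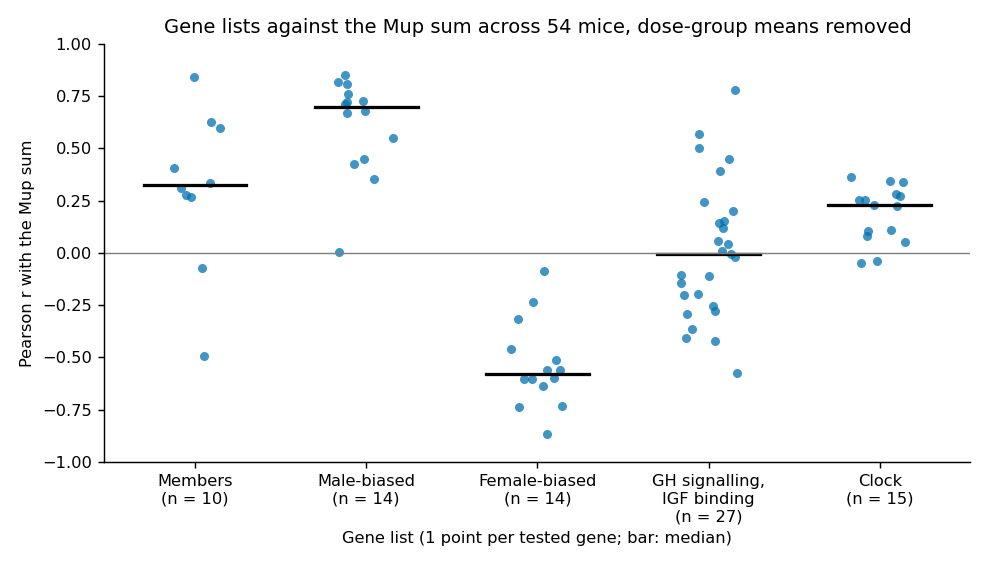
Pearson r of each tested gene with the Mup sum across 54 mice after removal of group means (y axis), by gene list (x axis), with 1 point per gene and a bar at the median. The male-biased genes lie at or above 0 (median 0.70) and the female-biased genes below 0 (median -0.58), while the growth hormone signalling and IGF binding genes are spread around 0.

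Markers of other liver cells also varied with these genes between mice. The summed level of 4 stellate cell and fibroblast markers had an r of -0.50 with Hsd3b5 and -0.40 with the Mup sum, and that of 5 Kupffer cell and macrophage markers -0.43 and -0.36. The sum of the 5 hepatocyte markers had an r of 0.51 with Hsd3b5 and 0.38 with the Mup sum, and that of 4 sinusoidal endothelial markers 0.22 and 0.43. Each sum adds up plain levels, so the most abundant markers weigh most, such as Alb (mean of 19400 in control) and Dcn (151). Single markers of a list differed in their r with the Mup sum. Among hepatocyte markers it was 0.78 for Cps1, 0.36 for Apoa1, 0.34 for Alb and 0.30 for Tat, but -0.02 for Ttr. Among endothelial markers it was 0.50 for Clec4g, 0.36 for Kdr and 0.16 for Stab2, but -0.57 for Lyve1. Among Kupffer cell markers it was -0.54 for Cd68 and -0.35 for Adgre1, but -0.07 for Clec4f, 0.04 for Vsig4 and 0.12 for Timd4. The stellate sum ran from 110 to 289 in control, 126 to 252 at 1.5, 116 to 300.4 at 15 and 115 to 177 at 150 mg/kg, and the Kupffer sum from 25.5 to 59.6, 22.2 to 43.0, 23.8 to 47.1 and 23.3 to 49.7. By limma no marker of either list passed the test against control at any dose, and 1 stellate marker had an unadjusted p under 0.05 at 1.5 mg/kg. The part of other cells in the relations between mice was not tested.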

How the data were processed

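Liver RNA libraries of 54 mice were made with a QuantSeq 3′ kit. The authors aligned them to GRCm38 with STAR and quantified them with RSEM and Salmon, within nf-core/rnaseq, and deposited 1 signal value per mouse and entry, named TPM. Every value was a whole multiple of 1 step per mouse (0.764 to 1.11) within 0.01 step, and the whole numbers summed to 948342 to 980641, so the values were taken as rounded TPM scaled between mice. The authors tested DEGs with DESeq2. No counts were at hand, and limma took its place.

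Mice were grouped by dose from their labels, and n is mice. Nothing was pooled and no batch was given. Of 20162 entries, the 11431 with a mean of at least 1 were tested with limma 3.58.1 (R 4.3.3; lmFit, eBayes with trend) on log2(value + 1). The 4 groups shared 1 fit, and p-values were adjusted by Benjamini-Hochberg over all entries tested. The 1 added pulls the log2FC of low genes toward 0. The Mup sum was tested by a 2-sided permutation test (100000 resamples, scipy 1.17.1, numpy 2.4.6). Correlations used log2 values centred on group means, with permutation within groups and adjustment over the 10 relations with the Mup sum or the 45 pairs. The limma fit was tested on simulated data. The 10 genes and all lists were chosen with earlier results of these data known. Text names all members and the list genes outside the Mup family that passed the test against control. Between doses only some of the list genes past the test are named. The 3 most similar entries are named for the members, but only the closest for Socs2, Stat5a, Stat5b and Bcl6. Alternatives were pseudocounts of 0.1 and 5, other filters, quantile normalization, a total without Mup genes, values not centred on group means, 2 groups alone, a replicate block, no log2FC threshold and each mouse left out. The values before scaling, the step as a covariate and each mouse left out of contrasts between doses were added after the data were seen.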

Additional observations from a re-analysis of the deposited data

Results flagged for a closer look

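Of the 10 genes, Igf1 and Elovl3 had a change that differed between doses by the test of the difference itself (limma, all 4 groups, Benjamini-Hochberg adjustment over all entries). Igf1 was lower at 1.5 than at 15 mg/kg (log2FC -0.249, adjusted p = 0.0281) and higher at 15 than at 150 mg/kg (0.417, adjusted p = 0.000207). Against control it was 0.14, 0.39 and -0.03 in order of dose, so the highest value was at the middle dose. Elovl3 was lower at 15 than at 150 mg/kg (-1.31, adjusted p = 0.000358), with -0.70 and 0.61 against control, neither past the test. The clock genes Per3 (0.80, adjusted p = 0.00224), Nr1d2 (0.30, adjusted p = 0.0185) and Ciart (0.95, adjusted p = 0.0361) were higher at 15 than at 150 mg/kg as well. These 3 of 15 tested clock genes stand beside 20% of all entries that passed in this contrast, and their part in the difference of Elovl3 or Igf1 was not tested.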

How the results depend on the processing

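The rise of Igf1 at 15 mg/kg and the differences of Igf1 and Elovl3 between 15 and 150 mg/kg kept their direction and stayed past the test in every alternative run. The number of DEGs moved most. At 1.5 mg/kg (42 DEGs) it was 23 with a pseudocount of 5, 22 without a filter on low values, 79 with control and that dose alone, 137 without a log2FC threshold, and 22 to 59 without 1 mouse. At 15 mg/kg (425) it was 190 with a pseudocount of 5 and 1621 without the threshold, and 293 to 560 without 1 mouse. At 150 mg/kg (96) it was 48 and 248 under the same settings. The count of members that passed at 1.5 mg/kg was 1 in place of 0, by Ghr, under quantile normalization (0.30), a total without Mup genes (0.31), whole-number TPM, the step as a covariate, and without replicate 4 of that group (0 to 1 over all mice). Ghr and Igf1 also differed between 1.5 and 150 mg/kg with a total without Mup genes, in whole-number TPM and with the step as a covariate. At 15 mg/kg it was 1 in place of 2 with control and that dose alone, where Ghr was lost (adjusted p = 0.0665), and 1 to 3 without 1 mouse. The change of the Mup sum at 1.5 mg/kg was 0.46 to 0.65 without 1 mouse. The number of correlated pairs fell from 14 to 5 with the step as a covariate.

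Changes of sign were seen only among values that did not pass the test, apart from the r of Igfals with the Mup sum (-0.025 with the step as a covariate). At 150 mg/kg Stat5a was -0.014 without Mup genes in the total and -0.016 in whole-number TPM, and Ghr was -0.067 with the step as a covariate, as was Hsd3b5 at 15 mg/kg (-0.17). For 1.5 against 15 mg/kg Stat5b was -0.00497 under quantile normalization, Hsd3b5 -0.17 with a pseudocount of 0.1, and Bcl6 0.035 without Mup genes and 0.013 in whole-number TPM. For 1.5 against 150 mg/kg, Stat5b was 0.060, 0.034 and 0.0026 and Igfals 0.081, 0.052 and 0.36 without Mup genes, in whole-number TPM and with the step. Cish was -0.047 for 15 against 150 mg/kg with a pseudocount of 0.1. Without 1 mouse, Stat5b ran from -0.087 to 0.015, from -0.088 to 0.0055 and from -0.048 to 0.045 in order of dose, Igfals from -0.22 to 0.0014 at 1.5 and from -0.20 to 2.9e-06 at 150 mg/kg, and Socs2 from -0.20 to 0.024 and Cish from -0.29 to 0.066 at 15 mg/kg. The cause was not tested. Replicate numbers did not pair the mice, since deviations of 79 same-numbered pairs had a mean r of -0.0025 (-0.359 to 0.243). With the replicate block the DEGs at 1.5 mg/kg were 27, Bcl6 passed for its r with the Mup sum (0.36, adjusted p = 0.0241), and no call of a member against control changed. Without the reads behind the values, the precision of low genes such as Cish, Bcl6 and Stat5a is unknown.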
